A study of Mus musculus with 2 samples.

Results

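The genes of fibroblast growth factor (FGF) signalling were examined in the midbrain of mouse embryos of the strain B6NCrl, at embryonic day 15.5. The genes were taken from a list of 38 symbols that covers the FGF ligands, their receptors, the feedback inhibitors of the pathway and 3 ETS transcription factors. Of these, 37 were matched by Ensembl gene ID among the 43346 Ensembl genes of the deposited tables, and Spry3 was not matched. Total RNA was sequenced from 2 biological replicates of 1 group of healthy tissue, for which the labels name no treatment and no mutation. Each replicate was a single library made from pooled male and female embryos, 78 of them for replicate 1 and 62 for replicate 2. A pooled library averages over its embryos, so the spread between single embryos cannot be seen, and the spread given here is that between the 2 pools. The design holds 1 tissue at 1 age, so it allows levels to be set side by side and the pools to be compared, but not a test of a condition.

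FGF ligands are secreted proteins that bind receptor tyrosine kinases at the cell surface together with heparan sulfate chains or klotho proteins. The active receptor signals through adaptor proteins to RAS, RAF, MEK and ERK kinases. ERK signalling switches on ETS factors and also Sprouty, Spred and Dusp6 proteins, which dampen it. In the developing midbrain the pathway is known for FGFs released at the isthmus, the boundary with the hindbrain, which pattern the tissue and keep progenitor cells dividing. A separate branch of the family, the FGF homologous factors, stays inside the cell and binds voltage-gated sodium channels.

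The libraries held 38966386 expected counts in replicate 1 and 40419493 in replicate 2. Levels are in TPM, transcript abundance scaled by length and library so that genes can be compared, and are given for replicate 1 and then replicate 2, or as mean ± SD (n = 2). All 6 midbrain markers were at 1 TPM or more in both libraries, with a summed level of 164 and 148 TPM. Markers of neighbouring tissue were also read. The 8 isthmus and cerebellum markers, 6 of them expressed, summed to 94.9 and 77.6 TPM. The 8 telencephalon markers, all expressed, summed to 151 and 127 TPM, and the 6 hypothalamus markers, 4 of them expressed, to 84.3 and 104 TPM. None of 8 Hox genes, which mark the hindbrain and spinal cord, passed 1 TPM in both libraries. In bulk tissue, fewer cells of a type and less RNA per cell cannot be told apart.

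Of the 37 genes, 23 were expressed, meaning at 1 TPM or more in both libraries. The same rule held for 35.4% of all Ensembl genes and for 62.4% of protein-coding genes. The pathway was thus read unevenly by role. All 4 intracellular FGFs, all 7 feedback inhibitors and all 3 ETS factors passed, as did 4 of 5 receptors, but only 5 of 18 secreted ligands did. The median level of the secreted ligands was 0.578 ± 0.00354 TPM, against 17.3 ± 1.24 TPM for the intracellular FGFs and 17.0 ± 0.219 TPM for the receptors. It was 7.74 ± 0.304 TPM for the feedback inhibitors and 13.1 ± 1.89 TPM for the ETS factors, while the median protein-coding gene stood at 5.42 ± 0.120 TPM. Each SD is that of a median between the pools and does not describe the spread among the genes. Together the 37 genes took 0.0396% and 0.0404% of all TPM.

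In order of mean level, Fgf13 was followed by Fgfr1 and Fgf14, and then by Dusp6, Fgfr2 and Spry2, which did not differ beyond their 2-library ranges with all Fgfr2 transcripts counted. Fgf15 came next, ahead of Fgfr3 and Fgf9, whose ranges overlapped, and of Etv1, Etv5, Fgf12, Spred1 and Spred3, each with a range of its own. Spry1, Etv4 and Spred2 overlapped in a chain, as did Spry4, Fgfrl1, Fgf18, Fgf11 and Fgf3 below them.

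**Figure D1:**
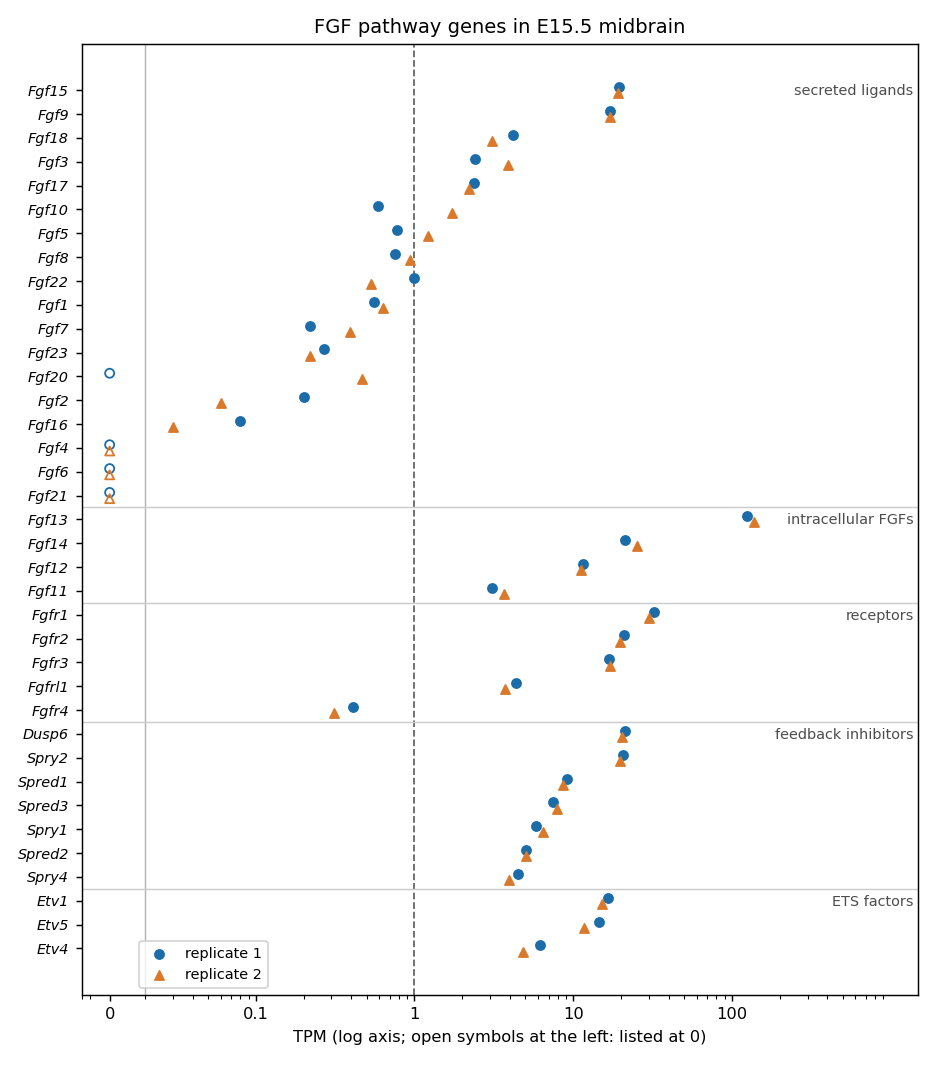
TPM on a log axis of the 37 FGF pathway genes by role, with circles for replicate 1 and triangles for replicate 2; the dashed line marks 1 TPM and open symbols at the left mark genes listed at 0. Fgf13 stands highest at 124 and 137 TPM, and most secreted ligands lie left of the dashed line.

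Among the secreted ligands, Fgf15 and Fgf9 carried most of the RNA. Fgf15, the mouse ortholog of human FGF19 and a factor made by neural progenitors of the embryonic brain, was at 19.4 and 19.1 TPM. Fgf9, a ligand made by neurons and other cells that acts on several receptors, was at 17.0 and 17.0 TPM. Both were close between the pools. The count ratio, replicate 1 over replicate 2, was 1.02 (exact Clopper-Pearson 95% interval 0.921 to 1.13) for Fgf15. It was 0.973 (0.872 to 1.09) for Fgf9. PCR copies of a molecule could not be told apart, so all such intervals, and the limits given for counts of 0, cover counting error only. Reads of Fgf9 were divided among transcripts of unequal coding length. Fgf9-201, which codes for the full 208 amino acids, took 30.1% and 32.9% of its TPM. Fgf9-202, listed with 91, took 45.0% and 41.6%, and Fgf9-203, also listed with 91, took 21.1% and 22.3%. Of these transcripts Fgf9-203 held the most counts, 260 and 285. Together Fgf15 and Fgf9 took 73.1% and 70.1% of the summed TPM of the 18 secreted ligands. The Fgf15 gene overlaps an antisense gene, Gm26793, at 3.76 and 3.71 TPM. The use of read strand is not given in the sources used here. Whether reads were told apart where a gene and an antisense partner overlap is therefore not known. An overlapping annotated gene was found for 11 of the 37 genes.

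The ligands of the FGF8 subfamily, which include the signals of the isthmus, were low. Fgf18 was at 4.15 and 3.07 TPM and Fgf17 at 2.37 and 2.22 TPM. Fgf8, the main organising signal of the isthmus at earlier stages, was at 0.75 and 0.94 TPM, from 16 and 19 counts. Its count ratio of 0.870 had an interval of 0.418 to 1.79, an interval that holds 1 and also 1.5-fold differences either way. The isthmus and cerebellum markers passed in 6 of 8 cases beside these levels, and none of them was at 0.

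Fgf3, a ligand of inner ear and hindbrain patterning, was the remaining expressed ligand, at 2.40 and 3.89 TPM. Fgf3 lies on chromosome 7 (144838083 to 144844436, build mm10) next to Fgf4 (144847367 to 144865243) and Fgf15 (144896531 to 144900953), all on the plus strand. These neighbours had very different levels. Fgf4, a ligand of the early embryo and the limb bud, had 0 counts in both libraries, which allows up to 0.0438 and 0.0424 TPM. Another pair of neighbours, Fgf6 and Fgf23 on chromosome 6, was low throughout. Fgf6, known from muscle, had 0 counts, which allows up to 0.113 and 0.110 TPM. Fgf23, a hormone of phosphate balance, was at 0.27 and 0.22 TPM. Fgf21, a metabolic hormone of the liver, also had 0 counts, which allows up to 0.155 and 0.150 TPM.

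Several ligands sat close to the 1 TPM line, and 28 genes would be called expressed at 0.5 TPM in place of 1 TPM. Fgf10 at 0.59 and 1.72 TPM and Fgf5 at 0.78 and 1.21 TPM were below it in replicate 1 only, and Fgf8 was below it in both. Fgf22, known as an organiser of presynaptic terminals, was at 0.99 and 0.53 TPM, from only 9 and 5 counts. Fgf22 overlaps Rnf126 on the opposite strand, which was at 87.7 and 79.0 TPM. The nearest genes above the line in both libraries were Fgf17 and Fgf3. Fgf1 (acidic FGF) followed at 0.56 and 0.63 TPM. Fgf7, Fgf2 (basic FGF), Fgf16 and Fgf20 were lower still, between 0 and 0.47 TPM in any library. For Fgf2 and Fgf20 the posterior SD of the count reached 43.1% and 156% of its mean, each the larger value of the 2 libraries. These percentages rest on very few counts, 3 and 1 for Fgf2 and 0 and 8 for Fgf20. Fgf2 overlaps Nudt6 on the opposite strand at 5.93 and 7.02 TPM, and Fgf20 overlaps Micu3 at 35.3 and 38.5 TPM.

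The intracellular FGFs were led by Fgf13. Fgf13, an X-linked factor that binds sodium channels and microtubules, was at 124 and 137 TPM and was the most abundant of all 37 genes. It ranked 1227 among the expressed protein-coding genes, within the top 9.16%. Fgf14, a sodium channel partner linked in humans to spinocerebellar ataxia, was at 21.4 and 25.2 TPM. Fgf12 was at 11.6 and 11.2 TPM and Fgf11, the least studied of the group, at 3.08 and 3.67 TPM. Fgf13 alone made up 77.5% and 77.4% of the TPM of this group. The 4 sodium channel alpha subunits were all expressed too, led by Scn3a at 51.7 and 58.3 TPM, Scn2a at 26.0 and 27.2 TPM and Scn1a at 10.7 and 14.1 TPM.

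Fgf13 isoforms differ in their first exon, which changes the start of the protein. The transcripts of Fgf13 fell into 6 first-exon groups on chromosome X. The group numbered 4 from the 5′ end (59166013 to 59166164, minus strand) held Fgf13-202, a transcript that codes for 192 amino acids, with 38.4% and 29.5% of the gene's TPM. The group numbered 1 (59567984 to 59568071) held 27.4% and 34.1%. The full-length transcript in that group, Fgf13-203, which codes for 187 amino acids, took 9.79% and 20.9%, from 607 and 1474 counts. Its share was lower in replicate 1, a difference that no other library could check. Group 5 (59133877 to 59134436) held Fgf13-201, which codes for 245 amino acids, with 18.8% and 17.9%. Group 3 held the short transcript Fgf13-205 with 13.8% and 17.0% of TPM but only 190 and 267 counts, because TPM divides by length. Fgf14 was simpler. Fgf14-202, whose first exon lies at 124676510 to 124677127 on chromosome 14 and which codes for 252 amino acids, took 87.9% and 83.9%, and Fgf14-201, which codes for 247 amino acids, took 12.1% and 16.1%.

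**Figure D2:**
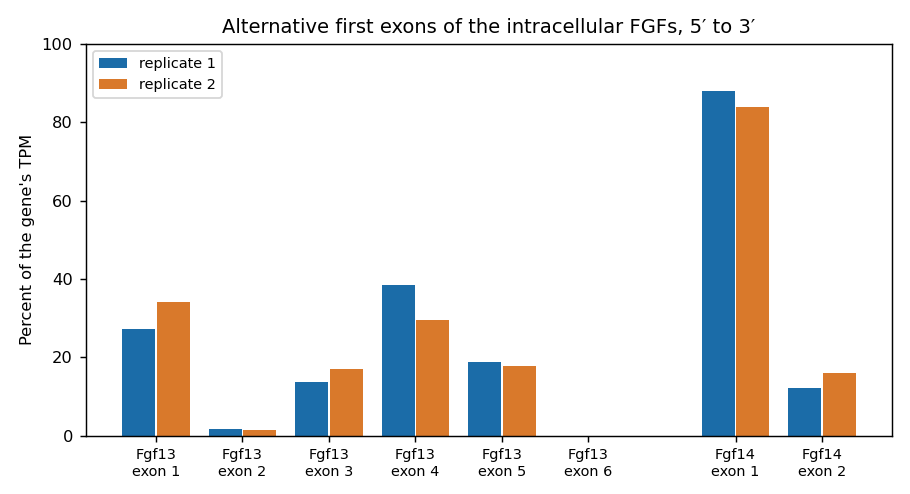
Percent of gene TPM by first exon for Fgf13 (6 groups) and Fgf14 (2 groups), ordered from the 5′ end, with bars for replicate 1 at the left and replicate 2 at the right of each pair. Fgf13 is divided among 4 main groups, of which group 4 is larger in replicate 1 (38.4%) than in replicate 2 (29.5%), while Fgf14 is mostly in its group 1.

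The receptors were led by Fgfr1, at 32.3 and 29.9 TPM, a widely used receptor of neural progenitors. Fgfr2 followed at 20.9 and 19.8 TPM and Fgfr3, a receptor of radial glia and later of astrocytes, at 16.9 and 17.2 TPM. The 2-library ranges of these genes did not overlap with each other. The order of Fgfr2 and Fgfr3 turns on a single transcript, however. Fgfr2-217, at 5.10 and 4.20 TPM, starts 2856878 nt upstream of the nearest other Fgfr2 start, and 2 of its 7 exons overlap exons of Ctbp2, which lies there on the same strand at 50.1 and 49.0 TPM. Without it, an alternative chosen after seeing the data, Fgfr2 was at 15.8 and 15.6 TPM, below Fgfr3. Fgfrl1, a receptor without a kinase domain, was at 4.37 and 3.73 TPM. Fgfr4, the receptor that responds to Fgf15 in liver together with Klb, was at 0.41 and 0.31 TPM, from 31 and 24 counts, and was the receptor below the line. Within Fgfr1 the leading transcript, Fgfr1-202, codes for 820 amino acids and took 45.0% and 37.6%, while the shorter Fgfr1-203, with 733, took 21.3% and 18.2%. By share of receptor TPM, Fgfr1 held 42.7 ± 0.697%, Fgfr2 27.9 ± 0.00889%, Fgfr3 23.4 ± 1.19%, Fgfrl1 5.54 ± 0.409% and Fgfr4 0.492 ± 0.0781%. With Fgfr2-217 taken out of both Fgfr2 and the receptor total, Fgfr2 held 23.0 ± 0.508%. The other shares are of the full total, so they are not on the same scale as this value.

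Fgfr1, Fgfr2 and Fgfr3 each have an alternative pair of exons for the end of the third immunoglobulin-like domain, which sets which ligands they bind. The upstream exon gives the IIIb form, typical of epithelia and, for some but not all of these genes, a receptor for the FGF7 subfamily. The downstream exon gives the IIIc form, typical of mesenchyme and of neural tissue. The pair was found in the annotation for 3 of 4 receptor genes searched. The Fgfr3 pair is shown as an example, because the share of each form is read from transcripts that hold one exon or the other. The Fgfr3 exons lie on the plus strand of chromosome 5, at 33731281 to 33731431 (IIIb) and 33732117 to 33732261 (IIIc). They were taken from GENCODE M21 transcripts on mm10, are written 5′ to 3′, and capitals mark the stretch of 8 bases or more that both exons hold.
Fgfr3 IIIc exon: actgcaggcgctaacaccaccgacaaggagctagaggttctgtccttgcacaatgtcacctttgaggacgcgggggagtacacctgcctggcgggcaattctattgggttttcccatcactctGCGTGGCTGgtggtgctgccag
Fgfr3 IIIb exon: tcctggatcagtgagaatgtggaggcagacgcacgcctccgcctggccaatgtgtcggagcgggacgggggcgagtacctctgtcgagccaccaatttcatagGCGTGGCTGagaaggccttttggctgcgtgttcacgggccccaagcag

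The Fgfr3 exons were 50.6% identical when aligned, and the shared stretch was 9 bases long.

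The IIIc form exceeded the IIIb form in all 3 receptors. In Fgfr1, transcripts with the IIIc exon alone took 81.8% and 74.2% of TPM, and none of the counts fell on transcripts with the IIIb exon alone. Transcripts with both exons took 4.08% and 3.68%, and those with neither took 14.1% and 22.1%. In Fgfr3 the IIIc form took 82.4% and 85.2% and the IIIb form 7.46% and 2.62%, from 115 and 42.7 counts. In Fgfr2, IIIc took 41.3% and 44.2%, IIIb took 12.9% and 10.0% and 45.8% in both libraries came from transcripts with neither exon. The largest of these was Fgfr2-217, the transcript that starts in Ctbp2, with 24.4% and 21.2%. Without it, transcripts with neither exon took 28.4% and 31.2% of Fgfr2, IIIc took 54.6% and 56.1% and IIIb took 17.0% and 12.7%.

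Among transcripts with 1 exon of the pair, IIIc made up 76.3% and 81.5% in Fgfr2 and 91.7% and 97.0% in Fgfr3, ranges that do not overlap. In Fgfr1 it made up 100% in both. No test was made of the difference between genes, since only 2 libraries exist. The IIIb share of Fgfr2 and of Fgfr3 was higher in replicate 1. Of 5 epidermal markers, as a sign of epithelial tissue, 3 passed 1.5-fold, all lower in replicate 1. The list, with 1 of 5 expressed, summed to 8.35 and 21.9 TPM. The part of these markers in the exon shares was not tested.

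**Figure D3:**
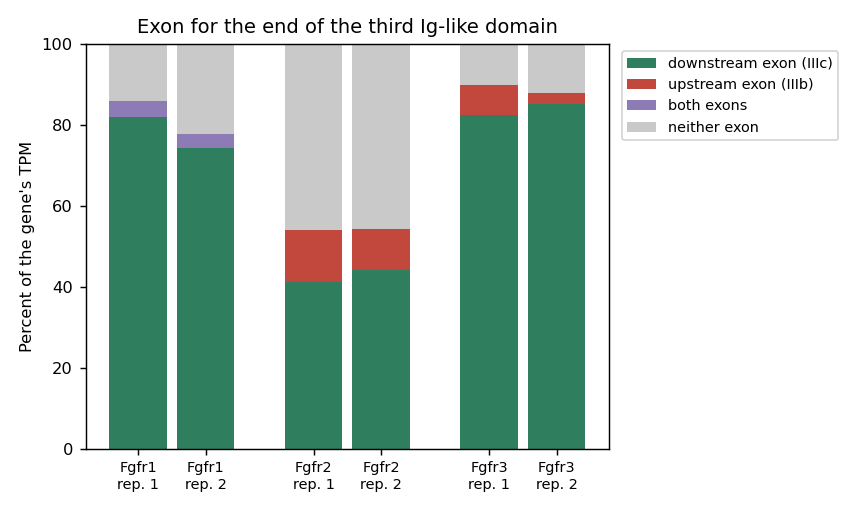
Percent of each receptor's TPM in transcripts with the IIIc exon, the IIIb exon, both exons or neither, as stacked bars for replicate 1 and replicate 2. IIIc is the largest class in Fgfr1 and Fgfr3, while in Fgfr2 transcripts with neither exon, Fgfr2-217 included, reach 45.8% in both libraries.

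The feedback inhibitors were all expressed. Dusp6, a phosphatase that inactivates ERK, was at 21.3 and 20.3 TPM. Spry2, a Sprouty protein that blocks the step from receptor to RAS, was at 20.7 and 19.8 TPM. These genes made up 28.5 ± 0.378% and 27.7 ± 0.392% of the group, and their 2-library ranges overlapped. The related Sprouty genes Spry1 (5.87 and 6.47 TPM) and Spry4 (4.48 and 3.95 TPM) were lower. The Spred genes, whose proteins hold back RAS with neurofibromin, stood at 9.17 and 8.63 TPM for Spred1, 5.01 and 5.03 TPM for Spred2 and 7.52 and 7.95 TPM for Spred3. No feedback gene passed 1.5-fold between the pools, and all 7 intervals of the count ratio held 1.

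The ETS factors of the PEA3 group, which FGF signalling induces, were higher in replicate 1 in each case. Etv1, also a marker of some neuron classes, was at 16.6 and 15.3 TPM, a count ratio of 1.13 (interval 1.04 to 1.24). Etv4 was at 6.17 and 4.81 TPM, a ratio of 1.21 (1.00 to 1.45). Etv5 was at 14.5 and 11.8 TPM, a ratio of 1.23 (1.13 to 1.33). All of these were below 1.5-fold. The 8 radial glia markers, all expressed, also summed higher in replicate 1, to 1620.4 and 1536 TPM. Their median log2 ratio was 0.15, against 0.27 for the ETS factors, and Hes1 alone among them was lower in replicate 1 (-0.11). The shift was not particular to radial glia. Medians were 0.36 for telencephalon, 0.18 for meninges, 0.15 for isthmus and cerebellum and 0.12 for midbrain markers. They were 0.09 for endothelium and 0.04 for oligodendrocyte precursor markers. The largest was 5.24, for liver markers, followed by 3.05 for the 3 Hox genes with enough counts, none of them expressed. Medians were -0.18 for hypothalamus and for choroid plexus markers and -3.30 for epidermal markers. The intracellular FGFs had a median log2 ratio of -0.20 and the sodium channel subunits of -0.21. The 6 of 6 young neuron markers expressed summed to 11352 and 11484 TPM, with a median of -0.04. Whether cell composition moves these genes was not tested.

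Between the pools, 30 genes had a mean of 10 or more counts and could be compared, and 3 of them differed by 1.5-fold or more. All 3 were ligands that were lower in replicate 1. By the same rule 8.42% of 18269 Ensembl genes differed in either direction, and 4.18% were lower in replicate 1. Among genes of 10 to 200 mean counts, a range chosen after the values were seen, 24.4% differed, and 3 of the 10 FGF genes in that range did. The count of 3 is therefore near the background. The median absolute log2 ratio was 0.18 for the 30 genes and 0.11 for all genes compared.

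Fgf10, a ligand of some IIIb receptor forms and known from limb and lung budding, had 55 counts in replicate 1 and 167 in replicate 2. The ratio was 0.340 (0.246 to 0.464). Its annotated antisense partner, Gm16263, had 0 and 2 counts. Fgf7, keratinocyte growth factor and a close relative of Fgf10, had 6 and 22 counts, a ratio of 0.282 (0.0934 to 0.716). Its TPM differed less, at 0.22 and 0.39, because its effective length, the length that reads were divided by, was 1175 nt in replicate 1 and 2326 nt in replicate 2. Fgf5, a ligand that ends hair growth, had 44 and 70 counts, a ratio of 0.649 (0.435 to 0.960). Just outside the threshold, Fgf3 had 114 and 173 counts, a ratio of 0.681 (0.533 to 0.867). Of the 4 members of the FGF7 subfamily, Fgf7 and Fgf10 passed, Fgf3 did not, and Fgf22, with 9 and 5 counts, had too few counts to be compared.

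Several marker genes passed 1.5-fold between the same pools. Of the 5 epidermal markers, Krt5 (0.08 and 4.72 TPM), Krt14 (0.21 and 5.02 TPM) and Krt15 (0.35 and 3.42 TPM) were lower in replicate 1. Krt1 (7.48 and 8.52 TPM), the one expressed in both libraries, and Trp63 (0.23 and 0.20 TPM) did not pass. Hypothalamus markers, 4 of 6 expressed, summed to 84.3 and 104 TPM. Avp, which did not pass, made up most of that sum, at 44.8 and 66.4 TPM. The higher sum in replicate 2 therefore reflects Avp and not the list as a whole. The hypothalamus markers that passed went opposite ways, Sim1 at 0.84 and 1.84 TPM and Pomc at 7.36 and 3.93 TPM. None of the 7 meninges markers, all expressed, passed, and they summed to 397 and 349 TPM. Of the 5 liver markers, 2 of them expressed, 4 were higher in replicate 1, with 209 and 4 counts for Alb, 329 and 9 for Afp, 99 and 2 for Serpina1b and 147 and 78 for Apoa1. The liver list summed to 259 and 273 TPM because Ttr, which also marks the choroid plexus, made up most of it. No listed marker of these tissues was at 0 in both libraries. Their part in the ligand differences was not tested.

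**Figure D4:**
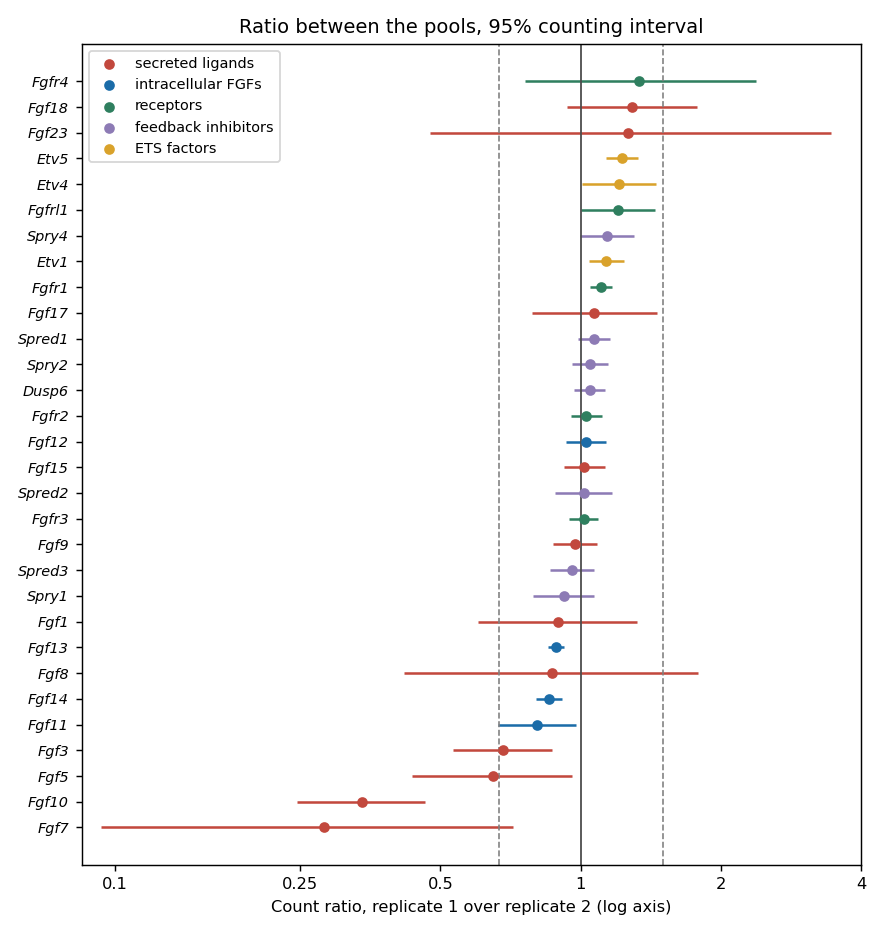
Count ratio of replicate 1 over replicate 2 on a log axis for the 30 genes that averaged 10 counts or more, coloured by role, with 95% counting intervals as lines and dashed lines at 1.5-fold either way. Fgf7, Fgf10 and Fgf5 lie beyond the left dashed line, and the receptors, feedback inhibitors and ETS factors lie between the dashed lines.

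Other genes of the pathway were taken from lists of its known parts, and 57 of 60 were expressed, beside 62.4% of all protein-coding genes. In the relay from receptor to ERK, 20 of 20 genes passed and the median was 51.0 ± 0.156 TPM. It was led by Araf (300.0 and 309 TPM), Map2k2 (219.8 and 209 TPM) and Hras (159.6 and 147 TPM), a RAF kinase, a MEK kinase and a RAS protein. Of the co-receptors and binding proteins 14 of 16 passed, at a median level of 18.6 ± 0.421 TPM. They were led by the heparan sulfate proteoglycans Gpc2 (179 and 188 TPM), Sdc3 (153 and 147 TPM) and Gpc1 (54.2 and 50.7 TPM). Kl and Klb, the klotho proteins that endocrine FGFs need, were below 1 TPM in both libraries. Kl was at 0.49 and 0.74 TPM, and its count ratio of 0.654 passed 1.5-fold. Kl is also on the list of 5 choroid plexus markers, and is the one of them that was not expressed. The other 4, Ttr, Folr1, Clic6 and Aqp1, did not pass 1.5-fold.

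Heparan sulfate enzymes were all expressed, 12 of 12, at a median of 14.9 ± 0.509 TPM. They were led by Sulf2 (92.3 and 91.9 TPM), Ext2 (65.1 and 62.1 TPM) and Sulf1 (26.8 and 31.7 TPM), of which Ext2 builds the chains and the Sulf enzymes trim their sulfate groups. Ndst4, an N-sulfating enzyme, was higher in replicate 1, at 10.2 and 6.67 TPM, a count ratio of 1.55. Other inhibitors had 7 of 8 genes expressed at a median of 9.24 ± 0.0778 TPM, led by Rasa1 (57.7 and 52.8 TPM), Dusp4 (51.7 and 54.5 TPM) and Cbl (18.9 and 19.9 TPM). Of the 59 genes of these lists with enough counts, Kl and Ndst4 were the 2 that passed 1.5-fold. By the same rule 8.42% of 18269 Ensembl genes did.

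**Figure D5:**
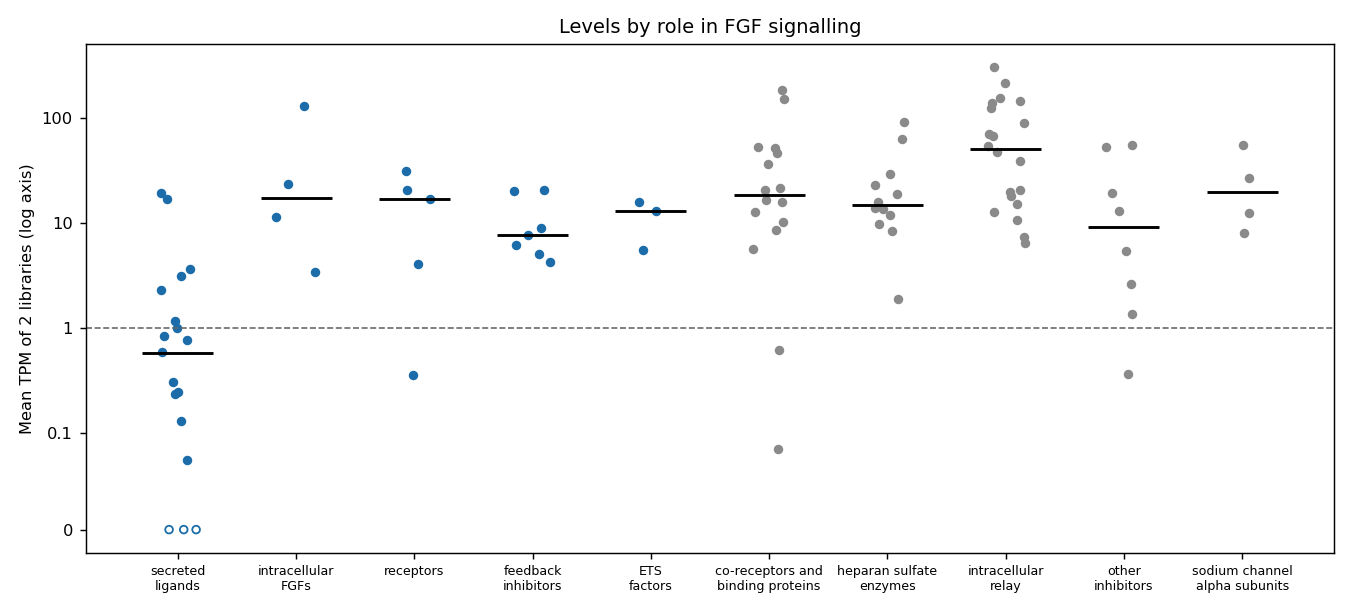
Mean TPM of the 2 libraries on a log axis, one point per gene, for the FGF genes by role (blue) and for other pathway lists (grey), with the list median as a black bar and 1 TPM as a dashed line. The secreted ligands are the only list whose median (0.578 TPM) lies below 1 TPM.

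Of the expressed FGF genes, 17 had more than 1 listed transcript, and the leading transcript was the same in both libraries for 15 of them. The same held for 91.7% of 10301 expressed genes with more than 1 transcript. The exceptions were Fgf11 and Fgf18. Fgf11-201, which codes for 197 amino acids, took 53.2% and 32.0% of Fgf11, and Fgf11-202, which codes for 225, took 46.8% and 68.0%. Fgf18-202, which codes for 98 amino acids, took 50.9% of Fgf18 in replicate 1 and 0% in replicate 2, where all 73 counts were assigned to Fgf18-201. Leading shares ranged widely: Spred1-201 took 96.7% and 96.1% of Spred1, while Etv1-203, 1 of 13 listed transcripts, took 30.0% and 34.8% of Etv1.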

How the data were processed

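Total RNA-seq tables of 2 libraries were used, with 10 ng of RNA longer than 200 nt per library, per the labels. Per the file headers, the deposited gene and transcript tables hold expected counts, TPM and, for transcripts, the percent of the gene's abundance. The notes deposited beside the tables name build mm10 and GENCODE M4. Aligner, counter, versions and strand use were not given in the sources used here. The deposited TPM was scaled over all rows, spike-ins included, which took 2.30% and 2.42% of counts together with the other rows that carry no Ensembl ID. Those rows were left out of library sizes and ratios. Their share of TPM was larger than their share of counts, since the Ensembl genes held 944227 and 940482 of 1000000 TPM.

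Expected counts were rounded for the pool ratio, which was scaled by TMM (edgeR 4.0.16, R 4.3.3) and given an exact Clopper-Pearson 95% interval. A gene was called different at 1.5-fold where the mean count was 10 or more. With 1 library per pool no p-value was computed. Role medians were taken within each library and averaged. Exons, transcript names, positions and sequences came from GENCODE M21 on the same build, and 2 transcripts of the FGF genes were not in it. Some exon sequences are not reported here. Other work ran in Python 3.11.15 with scipy 1.17.1, pandas 2.3.3, matplotlib 3.10.9 and numpy 2.4.6, and the ratio was tested on simulated data. DESeq2 1.42.0 gave alternative size factors.

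The genes, gene lists and thresholds were chosen with earlier results of these data known. All 38 symbols were accounted for. Named with both values were all expressed genes, genes past 1.5-fold and the 2 nearest on each side of 1 TPM. Of each pathway list the 3 highest and any gene past 1.5-fold were named.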

Additional observations from a re-analysis of the deposited data

How the results depend on the processing

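Leaving out 1 of 2 libraries cannot move a mean by more than its SD, so those values say nothing of stability. Of 53 other alternative values, 32 stayed within the SD between the pools, within 1.5 times for a count or within the counting interval for a ratio, 21 moved further and 0 changed sign. Expressed genes numbered 28 at 0.5 TPM, 23 at 2 TPM and 25 by posterior mean TPM, and 23 to 25 with 1 library left out. The median of the secreted ligands was 0.938 TPM by posterior means, 0.613 TPM when rescaled over Ensembl genes and 4.02 TPM over expressed members alone, and that of the receptors was 17.5, 18.1 and 18.7 TPM. Without Fgfr2-217, an alternative chosen after seeing the data, the receptor median was 15.7 TPM and IIIc took 55.3% of Fgfr2. The feedback median was 8.21 TPM when rescaled. Without a count minimum 7 genes, rather than 3, passed 1.5-fold between the pools, and 2 passed with a mean of 50 counts or with a 2-fold threshold. By posterior means and by expected counts, IIIc took 72.3% and 84.2% of Fgfr1, 37.0% and 60.8% of Fgfr2 and 78.4% and 88.8% of Fgfr3. Among transcripts with 1 exon of the pair it took 97.6% of Fgfr1 by posterior means, and 73.9% and 83.6% of Fgfr2. Expected counts weigh long transcripts more. The cause of the other shifts was not tested. With a pseudocount of 1 TPM the log2 ratio was -0.19 for Fgf7, against -1.83 from counts, and -0.77 for Fgf10, against -1.56. Leaving out 1 library gave role medians of 0.575 to 0.580 (secreted ligands), 16.5 to 18.2 (intracellular FGFs), 16.9 to 17.2 (receptors), 7.52 to 7.95 (feedback inhibitors) and 11.8 to 14.5 TPM (ETS factors), and IIIc shares of 74.2% to 81.8% in Fgfr1, 41.3% to 44.2% in Fgfr2 and 82.4% to 85.2% in Fgfr3. No paired analysis was possible because there is 1 group. Depth limits the ligands most: 7 of 18 had a mean under 10 counts.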
